A study of Mus musculus with 4 samples.

Results

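Vascular endothelial nuclei outside the sinusoids made up 53 of the 25611 nuclei kept from 4 mouse livers, or 0.207%. They were chosen by their counts of unique molecular identifiers (UMIs, each standing for 1 captured transcript) measured by sequencing RNA from isolated nuclei caught in droplets. A member had at least 500 detected genes, at most 5% mitochondrially encoded UMIs, at least 2 UMIs summed over the pan-endothelial genes Ptprb, Pecam1, Egfl7 and Adgrl4, and at least 2 summed over the vascular genes Vwf, Cdh13, Sox17, Gja5 and Jag1. It had 0 UMIs of the sinusoidal genes Stab2, Clec4g and Mrc1, and 0 of Cd5l, Clec4f, Reln, Skap1 and Pax5, which mark Kupffer, stellate, T and B cells. The libraries labelled Brca1-KO held 14 members in replicate 1 and 6 in replicate 2, and the Brca1-WT libraries held 13 in replicate 1 and 20 in replicate 2. They were set against 4796 Stab2-positive endothelial nuclei, which met the same filters and the same pan-endothelial minimum, carried at least 1 Stab2 UMI and lacked the same 5 excluded markers.

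All 4 libraries came from non-tumor liver of male mice aged 12 months given diethylnitrosamine (DEN), which causes liver tumors in mice, at 25 mg/kg when 14 days old, so both genotypes were exposed to the carcinogen. There were 2 libraries labelled Brca1-KO and 2 labelled Brca1-WT. The labels name neither the cell type in which Brca1 was deleted, nor the driver of the deletion, nor the deleted exons. The labels call the libraries biological replicates without saying which animals they came from, so p-values measure the spread between these samples. Below, Brca1-KO and Brca1-WT stand for the libraries so labelled.

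The liver's sinusoids are lined by a fenestrated endothelium without a continuous basement membrane, which clears waste molecules through scavenger receptors such as Stab2 and the mannose receptor Mrc1. Portal veins, hepatic arteries and central veins are lined by a continuous endothelium that stores von Willebrand factor (Vwf). The endothelium of the central vein is known in mice for secreting Wnt ligands and their enhancer Rspo3, which keep the neighbouring hepatocytes in their pericentral state. Arterial endothelium is known for Notch ligands, the gap junction protein Gja5 and elastic matrix.

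The promoters of 4 genes on which the comparison below turns are shown first, as 250 bases upstream of an annotated start, from RefSeq on assembly GRCm38.p6. Thsd7a and Mecom were among the genes highest in vascular over Stab2-positive nuclei, Edn1 was the highest called member of the vascular tone list after Npr3, and Kit had no UMI in any vascular nucleus. Mecom has a window at each of 2 starts. Kit has 2 windows as well, which overlap, and 1 of them is shown. Capitals mark 3 short motifs of endothelial factor families, searched on both strands. GATAA stands for GATA factors, AGGAAG for ETS factors and ACAAT for SOX factors.
Thsd7a, chr6:12749254-12749503, strand -: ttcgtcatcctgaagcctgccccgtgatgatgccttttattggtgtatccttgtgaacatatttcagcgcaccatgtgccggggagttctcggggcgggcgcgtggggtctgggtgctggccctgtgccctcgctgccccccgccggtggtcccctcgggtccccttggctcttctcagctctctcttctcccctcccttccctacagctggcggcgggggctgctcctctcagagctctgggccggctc
Mecom, chr3:30013205-30013454, strand -: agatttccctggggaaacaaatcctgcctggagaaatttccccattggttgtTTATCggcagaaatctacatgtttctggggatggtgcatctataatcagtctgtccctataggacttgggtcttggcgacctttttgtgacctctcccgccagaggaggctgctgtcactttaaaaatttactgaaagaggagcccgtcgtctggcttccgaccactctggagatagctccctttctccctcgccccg
Mecom, chr3:30509760-30510009, strand -: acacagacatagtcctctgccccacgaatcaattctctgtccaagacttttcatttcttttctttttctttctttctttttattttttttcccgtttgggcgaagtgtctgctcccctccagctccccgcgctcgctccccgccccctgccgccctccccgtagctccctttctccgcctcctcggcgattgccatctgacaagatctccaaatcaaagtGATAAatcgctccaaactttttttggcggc
Edn1, chr13:42301226-42301475, strand +: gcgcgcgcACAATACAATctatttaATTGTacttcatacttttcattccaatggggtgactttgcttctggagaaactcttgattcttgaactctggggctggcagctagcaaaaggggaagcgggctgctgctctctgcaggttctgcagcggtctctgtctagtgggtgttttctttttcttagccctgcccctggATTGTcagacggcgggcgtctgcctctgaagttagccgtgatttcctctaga
Kit, chr5:75574737-75574986, strand +: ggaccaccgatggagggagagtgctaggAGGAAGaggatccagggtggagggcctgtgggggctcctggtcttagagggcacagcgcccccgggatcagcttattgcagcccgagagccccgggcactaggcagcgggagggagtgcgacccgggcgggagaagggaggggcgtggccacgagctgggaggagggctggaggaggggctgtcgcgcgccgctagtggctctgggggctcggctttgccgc
The Thsd7a window held none of the 3 motifs, each Mecom window held 1 GATAA, the Edn1 window held 4 ACAAT matches, and the Kit window held 1 AGGAAG. Over the 32851 promoter windows of the table, 22.6% held GATAA, 29.5% held AGGAAG and 27.7% held ACAAT. Of the 12 genes named below as highest in vascular nuclei, 10 had a window, and of their 12 windows 2 held GATAA, 1 held AGGAAG and 1 held ACAAT. Of the 12 genes named as lowest, 6 had a window, and of their 9 windows 0, 5 and 1 held the motifs in the same order. The 2 Kit windows overlap and hold the same AGGAAG, which is thus counted in both. A match describes the letters in the window and nothing more. Nrg1, Sulf1, Adam12, Csmd1, Dkk3, Lyve1, Oit3 and Tspan18 had no window.

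The libraries held between 36662067 and 45638888 UMIs in deposited barcodes. In library order, here and below Brca1-KO 1, Brca1-KO 2, Brca1-WT 1 and Brca1-WT 2, the member nuclei held 66021, 14555, 63399 and 43986 UMIs in all, and the Stab2-positive nuclei 3060787, 1075092, 5361714 and 3807190. A single UMI among the members was therefore worth 15.1, 68.7, 15.8 and 22.7 CPM, which are UMI counts scaled to a common total per sum, and a count of 0 allowed up to 3 UMIs, or 45.4, 206, 47.3 and 68.2 CPM. Brca1-KO 2 was the thinnest of the 4 sums by far. Members had a median of 1825 UMIs (845 to 33854), against 1673.5 in Stab2-positive nuclei. Among kept nuclei, 86 barcodes occurred in more than 1 library, none of them a member in both, and 1 member's barcode was also kept in another library.

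The deleted gene could not be checked in these nuclei. Brca1, a DNA repair gene, had 0 UMIs in the members of every library. Over all kept nuclei it stood at 17.3 CPM in the library labelled Brca1-KO 1 and 5.48 CPM in Brca1-KO 2, against 11.9 and 11.2 CPM in Brca1-WT, so replicate 1 labelled Brca1-KO was above both Brca1-WT libraries and replicate 2 below both. Where the counted 3′ tags lie relative to the deleted part is not known, and a tag outside it checks nothing.

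Several nuclei that met the rule went against its name. Of the 53 members, 5 had over 7000 UMIs each and together held 88952 of the 187961 member UMIs. Hepatocyte markers (16 genes such as Alb and Cps1) stood at 22754 CPM in those 5 nuclei, against 5033 and 4984 CPM in the groups of 24 nuclei described below. The deepest of them, with 33854 UMIs in Brca1-KO 1 and 25334 in Brca1-WT 1, had 2 pan-endothelial UMIs each, 1 UMI each of Cdh13 and Jag1, and none of Vwf, Mecom or Thsd7a. Scrublet, a caller of doublets (droplets with more than 1 nucleus), marked 2 of the 5 and none of the other members. The member sums held 12208, 13604, 19638 and 6161 CPM of hepatocyte markers, against 10705, 12531, 13770 and 12923 CPM in Stab2-positive sums, and 3762, 12016, 5705 and 4387 CPM without the 5 nuclei. Their part in the results was not tested beyond the values given without them.

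Of the genes that the rule used, given here as a description, Vwf and Cdh13 carried nearly all of the vascular sum. Vwf had 144 UMIs in 44 members, against 109 UMIs in 36 of the 4796 Stab2-positive nuclei. Cdh13, T-cadherin, had 215 UMIs in 45 members, and it was also common in Stab2-positive nuclei, with 4203 UMIs in 1465 of them. Both genes were detected in 36 members, Vwf without Cdh13 in 8 and Cdh13 without Vwf in 9. The Notch ligand Jag1 had 15 UMIs in 15 members, Gja5 had 8 UMIs in 5, and the transcription factor Sox17 had 2 UMIs in 2. Sox17 ran against its use as a marker of these nuclei: it stood at 10.6 CPM in the members and at 31.8 CPM in Stab2-positive nuclei, where 383 nuclei held 423 UMIs. The pan-endothelial genes had medians of 13 UMIs summed per member, and the phosphatase Ptprb alone was detected in 52 of 53.

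Some members met the rule's thresholds narrowly. With a pan-endothelial sum of exactly 2, 5 members held 61965 UMIs, 0 of them of Vwf, and stood at 48.4 CPM of Mecom. The 4 nuclei left out with a pan-endothelial sum of 1 held 0 UMIs of Mecom and Thsd7a. With a vascular sum of exactly 2, 6 members stood at 813 CPM of Mecom and 136 CPM of Thsd7a. Those 6 held 66386 UMIs, of which the deepest members of Brca1-KO 1 and Brca1-WT 1 held 33854 and 25334. These deepest members had 0 UMIs of either gene, so the others stood above the pooled values. The 28 nuclei left out with a sum of 1 stood at 340 and 72.8 CPM. The 24 nuclei left out for a single sinusoidal UMI stood at 3369 CPM of Mecom, 847 of Rspo3 and 1602 of Thsd7a, while the members stood at 2357, 591 and 1543 CPM. The 1010 nuclei with 2 or more vascular UMIs and over 1 sinusoidal UMI stood at 157 CPM of Mecom, 108 of Rspo3 and 57.5 of Thsd7a. The nuclei left out for 1 sinusoidal UMI had levels of these 3 genes near those of the members. The 6 nuclei left out only for an excluded marker stood above the members, at 3289 CPM of Mecom, 1779 of Rspo3 and 2264 of Thsd7a. Of the 4796 Stab2-positive nuclei, 1003 held 2 or more vascular UMIs, so nearly all of the 1010 belong to that class. Their levels, closer to those of Stab2-positive nuclei, are therefore in part levels of the same nuclei.

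**Figure D1:**
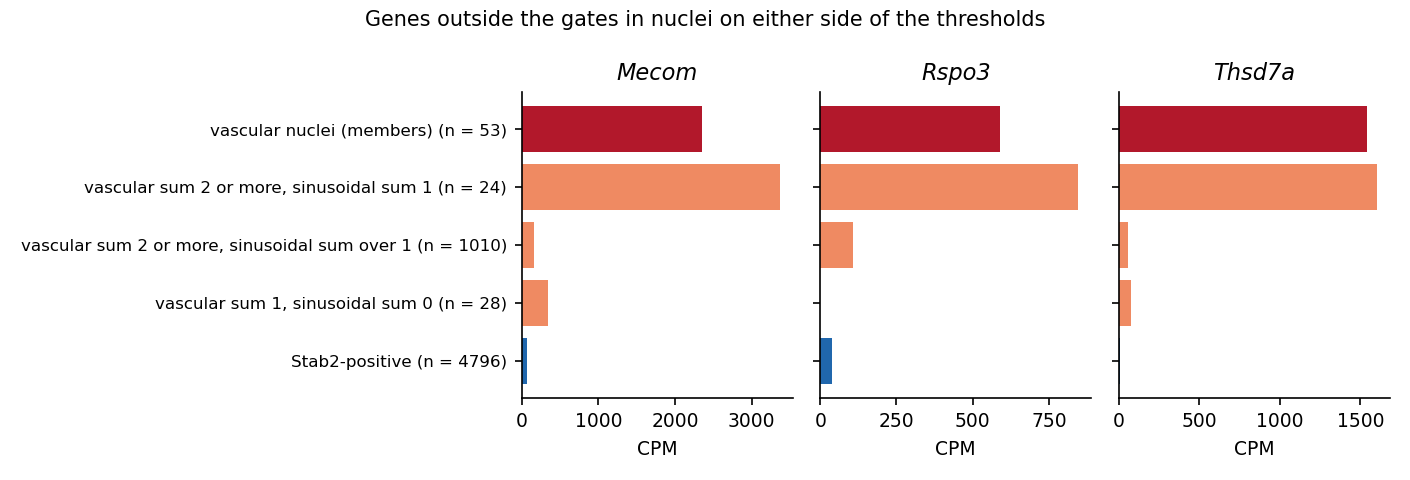
Levels of Mecom, Rspo3 and Thsd7a (x axis, CPM, from the summed UMIs of each set, all libraries pooled) in the 53 member nuclei, in nuclei outside the vascular or the sinusoidal threshold and in the 4796 Stab2-positive nuclei. The 24 nuclei left out for 1 sinusoidal UMI stood near the members, with Thsd7a at 1602 against 1543 CPM, while the 1010 with more stood at 57.5 CPM. Nearly all of the 1010 are also among the 4796 Stab2-positive nuclei.

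The class comparison asked which other genes separate the vascular nuclei from Stab2-positive nuclei of the same livers. UMIs were summed per library and class and tested with edgeR's quasi-likelihood test with the library as a block, leaving out every gene that a gate used. Genes whose UMIs go with those of the gate genes had a share in choosing the nuclei, so these calls describe how the 2 gates differ. Of 7213 genes tested, 326 (4.52%) passed at an adjusted p below 0.05: 117 (1.62%) were higher in vascular nuclei and 209 (2.9%) were lower. The median log2 difference of all tested genes was -0.15, against which single genes are to be read; it was -0.09 with other size factors, -0.38 without the 5 nuclei over 7000 UMIs and -0.52 after thinning each nucleus to 1000 UMIs. The count of calls was 185 without Brca1-KO 1. Without the 5 deep nuclei it was 506 of 6236 (8.11%), of which 169 (2.71%) were higher and 337 (5.4%) lower. In each class value given without the deep nuclei, Stab2-positive nuclei over 7000 UMIs were left out as well. With called doublets left out it was 575.

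The highest genes were led by Thsd7a, which encodes a thrombospondin-domain membrane protein of endothelial cells and podocytes. It stood at 1863, 1443, 505 and 2592 CPM in vascular nuclei, against 10.8, 1.86, 6.34 and 6.3 CPM in Stab2-positive nuclei. Every vascular sum was far above every Stab2-positive sum. The log2 difference was 7.60 ± 0.41 (SE), with an adjusted p of 2.90e-73 by edgeR, and 40 of 53 members held a UMI. That compares with 1.08% of Stab2-positive nuclei and with 0.894% of 8609 hepatocyte nuclei, which should lack the gene and had a median of 6990 UMIs.

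Mecom, a zinc finger transcription factor that maintains arterial endothelial identity in mice, stood at 1893, 3916, 709.8 and 4911 CPM in vascular nuclei, against 70.9, 30.7, 57.6 and 107 CPM in Stab2-positive nuclei. It differed by 5.0 ± 0.36 (SE) on the log2 scale (adjusted p = 1.02e-40), and no sum of one class reached those of the other. A UMI of Mecom was found in 43 members, in 10.1% of Stab2-positive nuclei and in 0.65% of hepatocyte nuclei. Pcdh7, a protocadherin of cell contacts, stood at 454, 893, 852 and 2455 CPM in vascular nuclei, against 5.88, 14.9, 8.77 and 5.78 CPM in Stab2-positive nuclei, a log2 difference of 6.79 ± 0.40 (SE) (adjusted p = 4.66e-61) that was 6.11 without Brca1-WT 2.

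The growth factor Nrg1, a ligand of ErbB receptors, stood at 621, 1580.2, 126 and 1205 CPM in vascular nuclei, against 15.4, 7.44, 16.4 and 29.7 CPM in Stab2-positive nuclei. Its log2 difference was 5.11 ± 0.37 (SE) (adjusted p = 2.09e-39), and 4.53 without Brca1-KO 2. Only 20 members held a UMI of it, so a subset carried the sum. Hepatocyte nuclei held Nrg1 at a low rate, with a UMI in 2.6% of them. The adhesion receptor Adgrg6 stood at 318, 618, 142 and 1296 CPM in vascular nuclei, against 5.55, 1.86, 7.65 and 12.9 CPM in Stab2-positive nuclei (log2 5.88 ± 0.44 (SE); adjusted p = 1.58e-38).

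The ectonucleotidase Entpd1 (CD39), which breaks down the platelet agonist ADP on the vessel wall, stood at 257, 206, 379 and 637 CPM in vascular nuclei, against 8.82, 10.2, 14.7 and 12.1 CPM in Stab2-positive nuclei. Its log2 difference was 4.88 ± 0.42 (SE), with an adjusted p of 6.19e-28. The other 6 of the 12 highest genes were higher in all 4 libraries as well. They were Myof, a membrane repair ferlin, at a log2 difference of 6.42, Tmtc1 at 6.14, the heparan sulfate endosulfatase Sulf1 at 5.91, Myrip, which links secretory granules of Vwf to the cytoskeleton in endothelial cells, at 5.39, the kinase Nuak1 at 5.14 and the dynamin Dnm3 at 5.13. Myof was at 5.80 without Brca1-WT 2.

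**Figure D2:**
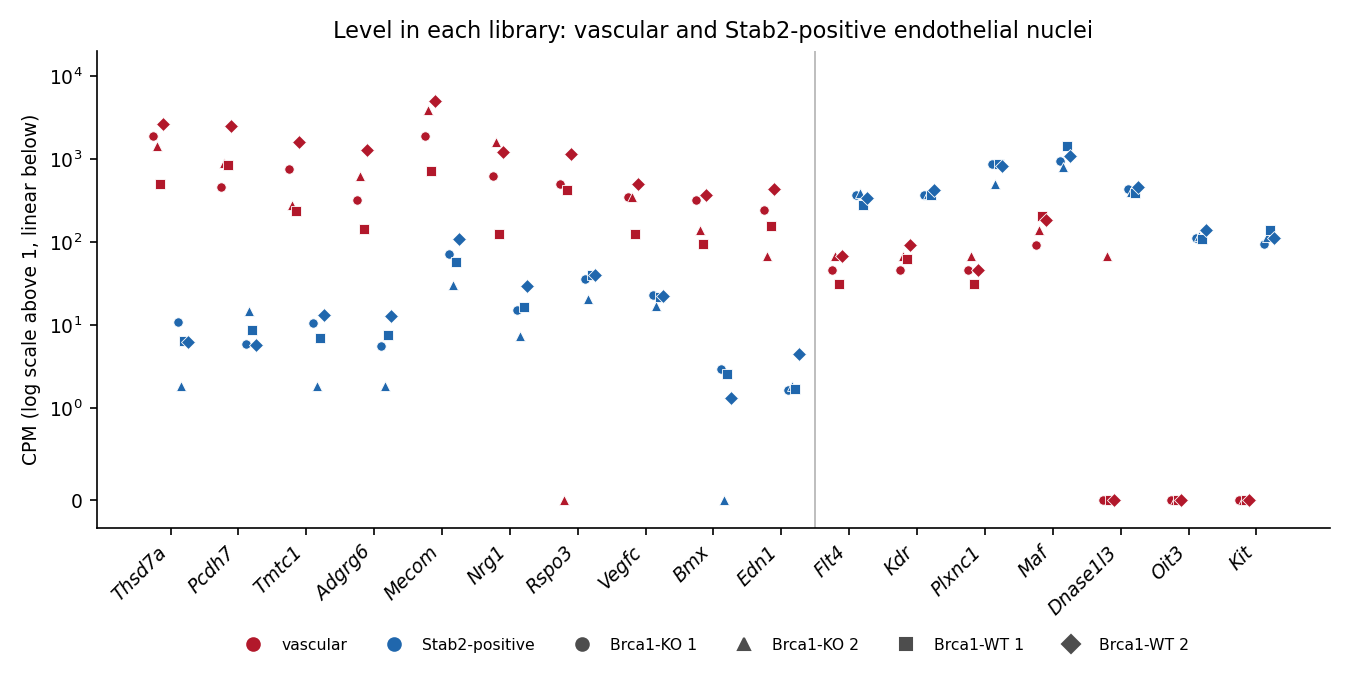
Levels of 17 genes (y axis, CPM, linear below 1 and logarithmic above) in the vascular sum (red) and the Stab2-positive sum (blue) of each library, with 1 marker shape per library. The 10 genes left of the vertical line were higher in vascular nuclei and the 7 right of it lower. Thsd7a stood at 505 to 2592 CPM in vascular sums and at 1.86 to 10.8 CPM in Stab2-positive sums.

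The 12 lowest genes had no UMI in any vascular nucleus, so each difference is a lower bound set by 3 UMIs over the 4 libraries. Abcc9, the sulfonylurea receptor subunit of a potassium channel, stood at 312, 35.3, 157 and 251 CPM in Stab2-positive nuclei and was at least 13.1-fold lower in vascular nuclei (adjusted p = 7.93e-10). Oit3, a protein secreted by sinusoidal endothelium in liver, was at least 7.45-fold lower and stood at 111, 118, 109 and 139 CPM in Stab2-positive nuclei. The receptor kinase Kit was at least 7.44-fold lower and the adhesion receptor Adgrg3 at least 7.34-fold lower. Bounds of the other 8 ran from 6.24-fold for the metalloprotease Adam12 through 5.6-fold for Tspan18, 4.75-fold for Csmd1, 4.62-fold for Plet1os, 4.48-fold for the nuclear receptor Esrrb, 4.15-fold for the phosphatase Lpin3 and 4.04-fold for the hyaluronan receptor Lyve1 to 3.97-fold for Dkk3. Without Brca1-KO 1, Lpin3 (adjusted p = 0.105), Lyve1 (0.084) and Dkk3 (0.0728) no longer passed. Abcc9 did not pass without the library block (adjusted p = 0.415). Of the 209 genes called lower, 31 had 0 UMIs in vascular nuclei. Plet1os is an antisense gene, and no source says whether reads were counted by strand.

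By the list of sinusoidal endothelium, 11 of 17 tested members were lower and none was higher, with a median log2 difference of -2.91, or -2.18 with the members at 0 UMIs set to their bound, against -0.15 for all tested genes. Stab2, Clec4g and Mrc1 were used by the gates and are not among the 17. The nuclease Dnase1l3, which clears circulating DNA, had 1 UMI in all vascular nuclei, against 436, 396, 388 and 458 CPM in Stab2-positive nuclei (log2 -6.35 ± 0.74 (SE); adjusted p = 1.88e-15). Its fitted value depends on that 1 UMI in Brca1-KO 2, without which it stood at -12.78. Plxnc1, a semaphorin receptor, stood at 45.4, 68.7, 31.5 and 45.5 CPM in vascular nuclei, against 864, 499, 874 and 829 CPM in Stab2-positive nuclei, a log2 difference of -4.34 ± 0.49 (SE) (adjusted p = 1.01e-16). The transcription factor Maf, which supports sinusoidal identity in mice, stood at 90.9, 137, 205 and 182 CPM in vascular nuclei, against 946, 792, 1420.2 and 1078 CPM in Stab2-positive nuclei (log2 -2.97 ± 0.39 (SE); adjusted p = 4.69e-12). For both genes every vascular sum was below every Stab2-positive sum. The low-affinity Fc receptor Fcgr2b likewise had 1 vascular UMI, against 304, 278, 239.8 and 290.2 CPM in Stab2-positive nuclei. Its log2 difference was -5.77 ± 0.78 (SE) (adjusted p = 2.51e-11), and -11.78 without Brca1-WT 2, which held that UMI.

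Of the arterial list, 4 of 10 tested members were higher and none lower, with a median log2 difference of 0.47. Beside Mecom these were Bmx, Eln and Tm4sf1. Bmx, a Tec-family kinase of arterial endothelium, stood at 318, 137, 94.6 and 364 CPM in vascular nuclei, against 2.94, 0, 2.61 and 1.31 CPM in Stab2-positive nuclei (log2 6.66 ± 0.50 (SE); adjusted p = 3.26e-38), and its log2 difference was 7.30 without Brca1-WT 1. Elastin (Eln), the elastic fibre protein, stood at 121, 68.7, 142 and 341 CPM in vascular nuclei, against 4.25, 0, 2.61 and 3.15 CPM in Stab2-positive nuclei (log2 5.82 ± 0.53 (SE); adjusted p = 9.47e-26). The membrane protein Tm4sf1 differed by 2.33 ± 0.57 (SE) (adjusted p = 0.00187), which did not pass without Brca1-KO 1 (0.0575) or Brca1-WT 2 (0.177).

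Of the venous list, 2 of 10 tested members were higher, Rspo3 and Adgrg6, and 1 was lower, Kit, with a median of 0.11. Rspo3 had 33, 0, 27 and 51 UMIs in vascular nuclei, which is 499.8, 0, 426 and 1159 CPM, against 35.6, 20.5, 40.3 and 39.9 CPM in Stab2-positive nuclei. It was higher in 3 of 4 libraries, and in Brca1-KO 2 the count of 0 allowed up to 206 CPM. The log2 difference was 3.73 ± 0.37 (SE) (adjusted p = 4.40e-21), and 23 members held a UMI, while 3.94% of Stab2-positive and 0.825% of hepatocyte nuclei did. Bmp4 and the selectin Selp did not pass the filter on low counts: Bmp4 had 33 UMIs in the members and Selp had 22. The venous list also counted Vwf and Cdh13, which the gate used.

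No member of the continuous capillary list was higher, and 2 of 7 tested were lower, Cd300lg and Btnl9, with a median of -1.09. Neither passed without Brca1-KO 1 (adjusted p = 0.32 for Cd300lg and 0.186 for Btnl9), and Cd300lg did not without Brca1-WT 2 (0.0949). Without Brca1-WT 1 the log2 difference was -3.78 for Cd300lg and -3.93 for Btnl9, against -2.41 and -2.87 with all libraries. The fatty acid binding protein Fabp4, at a log2 difference of 1.74, did not pass (adjusted p = 0.101), but passed without the 5 deep nuclei (log2 1.85; adjusted p = 0.0322). Of the lymphatic list, 3 of 5 tested members were lower (Flt4, Lyve1 and Nrp2) and none higher, and the defining markers Pdpn and Mmrn1 had 0 UMIs in the members. Prox1, which marks lymphatic endothelium and is also made by hepatocytes, had 72 UMIs in 11 members, 33 of them in 1 nucleus.

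**Figure D3:**
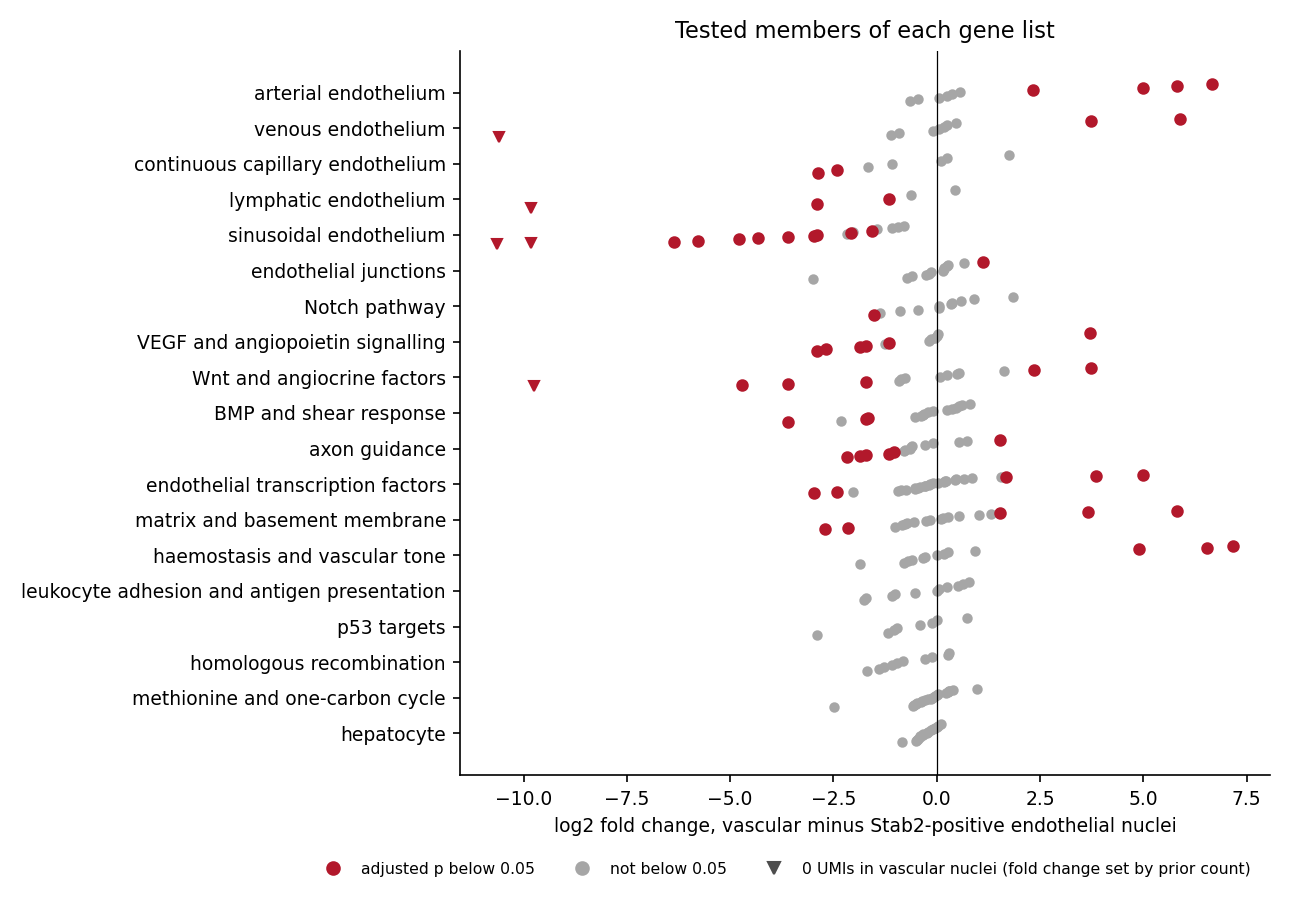
Log2 difference, vascular over Stab2-positive nuclei (x axis), of each tested member of the gene lists (y axis); red marks an adjusted p below 0.05 by edgeR and triangles mark genes with 0 UMIs in vascular nuclei, whose fitted value depends on the prior count. The sinusoidal list lay on the negative side with a median of -2.91, and the arterial list had a median of 0.47.

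Among the signalling lists, the ligand Vegfc was higher and the VEGF receptors Flt4 and Kdr were lower. Vegfc, which acts on Flt4 and Kdr, stood at 348, 344, 126 and 500.2 CPM in vascular nuclei, against 22.9, 16.7, 21.8 and 22.1 CPM in Stab2-positive nuclei (log2 3.70 ± 0.41 (SE); adjusted p = 9.03e-17). The receptor Flt4 (VEGFR3) stood at 45.4, 68.7, 31.5 and 68.2 CPM in vascular nuclei, against 369.5, 389.7, 281 and 342 CPM in Stab2-positive nuclei (log2 -2.91 ± 0.49 (SE); adjusted p = 1.86e-07). Kdr (VEGFR2) stood at 45.4, 68.7, 63.1 and 90.9 CPM in vascular nuclei, against 369, 380.4, 363 and 424 CPM in Stab2-positive nuclei (log2 -2.68 ± 0.45 (SE); adjusted p = 3.11e-07). Both receptors were lower in all 4 libraries with no overlap between the classes. The coreceptor Nrp1 fell too, at 333, 618, 221 and 250.1 CPM in vascular nuclei, against 1109, 1067, 1022 and 876 CPM in Stab2-positive nuclei (log2 -1.85 ± 0.35 (SE); adjusted p = 7.62e-06). In all, 1 of 12 tested members of the VEGF and angiopoietin list was higher and 5 were lower, the others being Nrp2 and Robo4, with a median of -0.67. Nrp2 (-1.16) did not pass without Brca1-KO 1 (adjusted p = 0.109), Brca1-WT 1 (0.291) or Brca1-WT 2 (0.221). Robo4 (-1.72) did not pass without Brca1-KO 1 (0.518) or Brca1-WT 1 (0.448), and stood at -3.57 without Brca1-WT 2. Hepatocyte nuclei held a Vegfc UMI in 16.3% of cases at their greater depth, against 3.88% of Stab2-positive nuclei and 17 of the 53 members.

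Of the Wnt and angiocrine list, 2 of 14 tested members were higher and 4 lower, with a median of -0.34. The higher ones were Rspo3 and the matricellular protein Ccn2, which stood at 227, 68.7, 94.6 and 341 CPM in vascular nuclei, against 38.2, 20.5, 25.4 and 46.2 CPM in Stab2-positive nuclei (log2 2.36 ± 0.44 (SE); adjusted p = 4.16e-06). The lower ones were Dkk3, the hepatocyte growth factor Hgf with 1 vascular UMI, and the ligands Bmp2 and Bmp6, which induce hepcidin in hepatocytes. Bmp2 stood at 15.1, 0, 15.8 and 45.5 CPM in vascular nuclei, against 241, 192, 239 and 268 CPM in Stab2-positive nuclei (log2 -3.60 ± 0.60 (SE); adjusted p = 1.80e-07), and at -4.19 without Brca1-WT 2. Bmp6 stood at 424, 206, 126 and 1114 CPM in vascular nuclei, against 1584, 643, 834 and 1620.1 CPM in Stab2-positive nuclei (log2 -1.72 ± 0.35 (SE); adjusted p = 5.76e-05). It was lower in each library, although the ranges of the classes overlapped, and it did not pass when Cdh13 was left out of the gate (adjusted p = 0.146) or without the library block (0.284). Of the BMP and shear list, 3 of 16 tested members were lower, Bmp6, Bmp2 and Smad1, and none was higher; Smad1 (-1.66) did not pass without Brca1-KO 1 (0.305), Brca1-WT 1 (0.0721), Brca1-WT 2 (0.0546) or the 5 deep nuclei (0.0795). Without those nuclei the BMP receptor Bmpr2 passed as higher (log2 0.88; adjusted p = 0.0202) and the BMP-binding protein Bmper, with 2 UMIs in all members, as lower (adjusted p = 0.0111).

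Of the haemostasis and vascular tone list, 3 of 13 tested members were higher and none lower, with a median of 0.01. Beside Entpd1 they were Edn1 and Npr3. Endothelin-1 (Edn1), a vasoconstrictor peptide, stood at 242, 68.7, 158 and 432 CPM in vascular nuclei, against 1.63, 1.86, 1.68 and 4.47 CPM in Stab2-positive nuclei, which came to 46 and 33 UMIs. Its log2 difference was 6.54 ± 0.48 (SE) (adjusted p = 3.55e-39), and no vascular sum overlapped a Stab2-positive one. Npr3, the clearance receptor of natriuretic peptides, stood at 242, 206, 78.9 and 114 CPM in vascular nuclei, against 1.31, 0.93, 0.187 and 1.31 CPM in Stab2-positive nuclei (log2 7.17 ± 0.61 (SE); adjusted p = 3.34e-29). The tissue factor pathway inhibitor Tfpi, at -1.87, did not pass (adjusted p = 0.0999).

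Of the matrix and basement membrane list, 3 of 18 tested members were higher (Eln, Fbn1 and Ntn4) and 2 lower (Col4a1 and Col4a2), with a median of -0.03. Fibrillin-1 (Fbn1), the microfibril protein on which elastin is laid down, stood at 151, 549.6, 237 and 205 CPM in vascular nuclei, against 10.5, 13, 24.1 and 20.8 CPM in Stab2-positive nuclei (log2 3.65 ± 0.44 (SE); adjusted p = 1.41e-14). Netrin-4 (Ntn4), a laminin-binding matrix protein, stood at 788, 137, 473 and 750.2 CPM in vascular nuclei, against 151, 116, 180.4 and 244 CPM in Stab2-positive nuclei. Its log2 difference of 1.53 ± 0.34 (SE) (adjusted p = 2.49e-04) was 1.14 without Brca1-KO 1 and then did not pass (0.269). The type IV collagen chain Col4a2 (-2.70; adjusted p = 0.0109) did not pass without Brca1-KO 1 (0.126) or Brca1-WT 1 (0.198). The other chain, Col4a1, with 5 UMIs in the members (log2 -2.15 ± 0.65 (SE); adjusted p = 0.0233), did not pass without the 5 deep nuclei (0.0606), and fibulin-2 (Fbln2), a matrix glycoprotein with 13 UMIs that was otherwise filtered out, then passed as higher (adjusted p = 3.96e-16).

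Of 27 tested endothelial transcription factors, 3 were higher (Mecom, Ebf1 and Sox13) and 2 lower (Maf and Ets1), with a median of -0.16. Ebf1 stood at 182, 137, 94.6 and 182 CPM in vascular nuclei, against 5.23, 18.6, 14.7 and 5.52 CPM in Stab2-positive nuclei (log2 3.85 ± 0.49 (SE); adjusted p = 3.76e-13). Ets1 stood at 0, 68.7, 142 and 205 CPM in vascular nuclei, against 458, 651, 515 and 405 CPM in Stab2-positive nuclei (log2 -2.43 ± 0.41 (SE); adjusted p = 4.15e-07), and at -3.10 without Brca1-WT 2. Of the axon guidance list, 1 of 15 tested members was higher (Ntn4) and 5 lower, with a median of -0.65. They included Robo1, a Slit receptor, at -2.16 ± 0.49 (SE) (adjusted p = 5.10e-04), and Nrp1, Nrp2, Robo4 and Sema6a.

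The junction and Notch lists, which name features of continuous and arterial endothelium, had 1 call each. Over all tested genes the share called was 4.52%, so 1 call in lists of this size is no scarcity. Of 13 tested junction genes, only Jam2 passed, at 333, 344, 237 and 864 CPM in vascular nuclei, against 157, 149.8, 203 and 171 CPM in Stab2-positive nuclei (log2 1.12 ± 0.34 (SE); adjusted p = 0.0297). Jam2 did not pass without Brca1-KO 1 (0.32), Brca1-WT 1 (0.0574) or Brca1-WT 2 (0.701). The cadherin of endothelial junctions, Cdh5, stood at a log2 difference of -0.59 (adjusted p = 0.8). Of 11 tested Notch pathway genes, only the coactivator Maml3 passed, at -1.51 ± 0.36 (SE) (adjusted p = 0.00131). Without the 5 deep nuclei Lfng, a glycosyltransferase that modifies Notch, passed as higher too (log2 1.99; adjusted p = 0.0172), against an adjusted p of 0.0768 with them. A p that missed the threshold does not show equal levels at this depth.

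None of the tested members passed in the lists of leukocyte adhesion and antigen presentation (11 tested), p53 targets (8), homologous recombination (10) and the methionine and one-carbon cycle (21). Among all genes 837 had an unadjusted p below 0.05, and 326 passed. No proliferation gene had enough UMIs to be tested, and that list had 8 UMIs in the members. Of the hepatocyte list none of 16 passed, with a median of -0.28; without the 5 deep nuclei 3 were lower (Alb, Apob and Trf), and so were Mat1a and Gnmt of the methionine and one-carbon list (adjusted p = 0.00693 and 0.0201). The other calls gained without those nuclei were the ligand Pdgfb (log2 1.84) and the semaphorin receptor Plxna4 (0.87) as higher, and Car8, Ctsl, Foxp2, Tcf4, Zeb1 and Ralgps2 as lower.

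Markers of other cells of the vessel wall were nearly absent. The fibroblast list had 1 UMI over its 10 genes, in Col3a1. Of 10 smooth muscle genes only Mylk was detected, with 65 UMIs, at 346 CPM in vascular nuclei and 344 CPM in Stab2-positive nuclei, while Myh11, Acta2 and Tagln had 0. Of the stellate list Ecm1 had 2 UMIs and Dcn 3. Of the cholangiocyte list Bicc1 had 2 UMIs, and Krt19 and Epcam had 0. The mesothelial list summed to 379, 0, 110.4 and 637 CPM in vascular nuclei, against 25.2, 13, 16.4 and 27.1 CPM in Stab2-positive nuclei, with 59 of its 60 UMIs in Gpm6a, while Msln, Upk3b and Wt1 had 0. The T and NK cell list had 5 UMIs and the B cell list 18, all in Ralgps2. What part such cells or their RNA had in the differences was not tested. Mertk, of the macrophage list, was lower in vascular nuclei at -1.93 (adjusted p = 6.31e-06), with Csf1r and Adgre1 at 0 UMIs.

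Within the 53 members, Leiden clustering of the 4 libraries together gave a group of 24 nuclei led by Sntg1 and Rspo3, a group of 24 led by Nrg1, and the 5 nuclei over 7000 UMIs. They are called here the Rspo3 group, the Mecom group and the deep group, after genes seen to differ. All values between them are a description, since the same genes made the groups. The Rspo3 group had 8, 1, 6 and 9 nuclei in library order and the Mecom group 5, 4, 5 and 10. The 1 nucleus of Brca1-KO 2 in the Rspo3 group had 845 UMIs, of which 2 were pan-endothelial, and 0 UMIs of Rspo3, Wnt9b, Wnt2 and Selp, so that library does not show the genes of the group. Their median UMIs were 1856 and 1766, and their hepatocyte markers stood at 5033 and 4984 CPM.

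The Rspo3 group held every Rspo3 UMI outside the deep group, 101 UMIs in 21 of 24 nuclei, and the Mecom group held 0. The other angiocrine Wnt ligands went with it: Wnt9b and Wnt2 had 8 UMIs each in the Rspo3 group and 0 in the Mecom group. Sntg1, a syntrophin scaffold protein, had 237 UMIs in 13 nuclei of the Rspo3 group, against 1 UMI in the Mecom group. The cyclooxygenase Ptgs1, which makes prostaglandin precursors, had 30 UMIs against 0, and Adamtsl1 had 44 against 0. The RNA-binding protein Rbms3 stood at 4081 CPM in the Rspo3 group and 294 CPM in the Mecom group. Selp, P-selectin, stood at 330.4 CPM in the Rspo3 group and 84.1 CPM in the Mecom group.

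The Mecom group held Nrg1 with 111 UMIs in 19 of 24 nuclei, Vegfc with 57 in 16, the matrix protein Hmcn1 with 61 in 20 and the collagen Col8a1 with 43 in 10, and the Rspo3 group held 0 UMIs of each. The arterial genes Gja5, which the rule used, and Efnb2 had 8 and 12 UMIs in it and 0 in the Rspo3 group. Mecom itself stood at 7549.8 CPM in the Mecom group, where every nucleus held a UMI, and at 1166 CPM in the Rspo3 group. The leptin receptor Lepr stood at 2166 CPM in the Mecom group and 117 CPM in the Rspo3 group. Elastin stood at 505 CPM in the Mecom group and 155 CPM in the Rspo3 group. The arterial and venous lists did not split cleanly between the groups. Adgrg6, of the venous list, stood at 1577 CPM in the Mecom group and 389 CPM in the Rspo3 group. Osmr, of the same list, stood at 568 and 389 CPM. Tm4sf1, of the arterial list, stood at 126 CPM in the Mecom group and 155 CPM in the Rspo3 group. By the arterial list without gate genes the Mecom group stood at 9821 CPM and the Rspo3 group at 2002, and by the venous list without gate genes they stood at 3302 and 6063 CPM. Much of both sums was the gene each group is named for: with Mecom and Rspo3 also left out, the Mecom group stood at 2271 CPM and the Rspo3 group at 836 CPM by the arterial list, and at 3302 and 4100 CPM by the venous list.

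Other genes had similar pooled levels in the 2 groups, although single libraries and nuclei differed. Vwf stood at 1399 CPM in the Rspo3 group and 1367 CPM in the Mecom group, Thsd7a at 2837 and 2692, Pcdh7 at 2002 and 2082, and Edn1 at 525 and 399.6. By library, Thsd7a stood at 5543, 0, 853 and 1607 CPM in the Rspo3 group, against 1303, 2064, 1380 and 4462 CPM in the Mecom group. A single nucleus of Brca1-WT 2 held 49 of the 103 Pcdh7 UMIs of the Rspo3 group. Nucleus by nucleus, 23 members held a Rspo3 UMI and 20 held an Nrg1 UMI, none held both, and 10 held neither. Likewise no member held both Rspo3 and Vegfc, which was detected in 17. Of the 10 genes that led each group, 2 of the Rspo3 group's were in the venous list and none of the Mecom group's was in the arterial list, so neither was named as a vessel type.

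**Figure D4:**
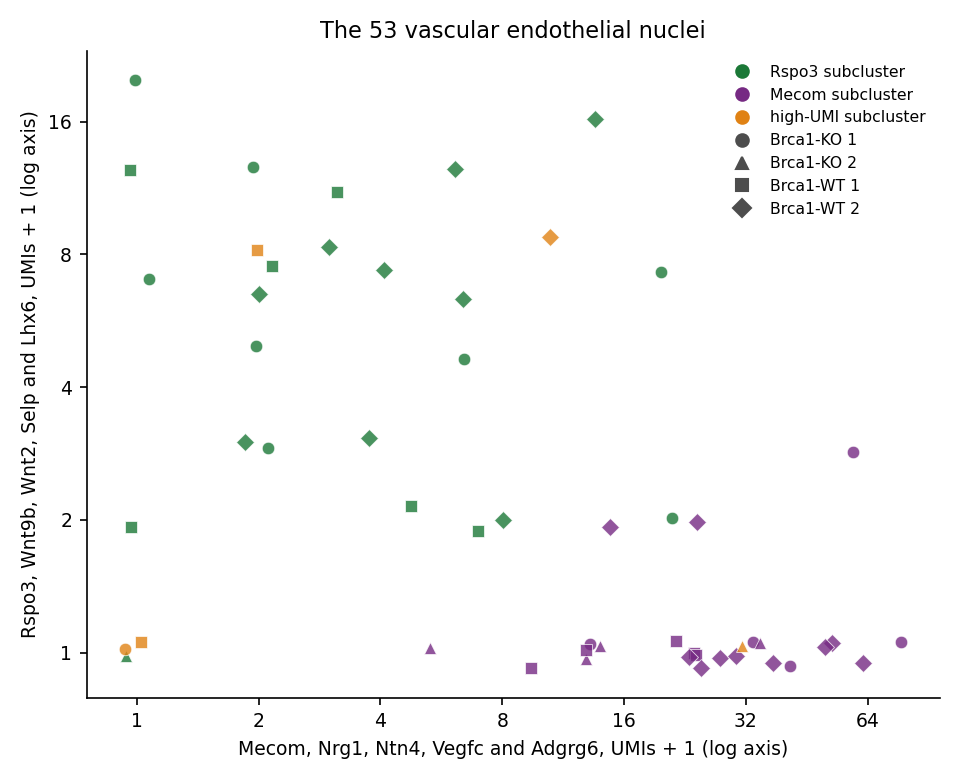
Each of the 53 member nuclei by its summed UMIs of Mecom, Nrg1, Ntn4, Vegfc and Adgrg6 (x axis) and of Rspo3, Wnt9b, Wnt2, Selp and Lhx6 (y axis), both with 1 added and on log2 axes, with slight jitter. Colour marks the group from clustering and shape the library; none held both Rspo3 and Nrg1, while several held UMIs on both axes, such as a nucleus of Brca1-WT 2 with 12 on the x axis and 15 on the y axis.

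The share of vascular nuclei did not differ detectably between the genotypes. Over vascular plus Stab2-positive nuclei it was 1.17% (14 of 1196; exact 95% interval 0.641 to 1.96) and 1.09% (6 of 552; 0.4 to 2.35) in the libraries labelled Brca1-KO, against 0.849% (13 of 1531; 0.453 to 1.45) and 1.27% (20 of 1570; 0.78 to 1.96) in the Brca1-WT libraries. The Brca1-WT values lay on either side of both others. The means were 1.13 ± 0.059% in Brca1-KO and 1.06 ± 0.30% in Brca1-WT (SD, n = 2 each), with a 2-sided exact permutation p of 1; the smallest that 2 against 2 can give is 0.33. The difference of 0.067 percentage points changed sign without Brca1-WT 1, to -0.145. Intervals cover counting error only.

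**Figure D5:**
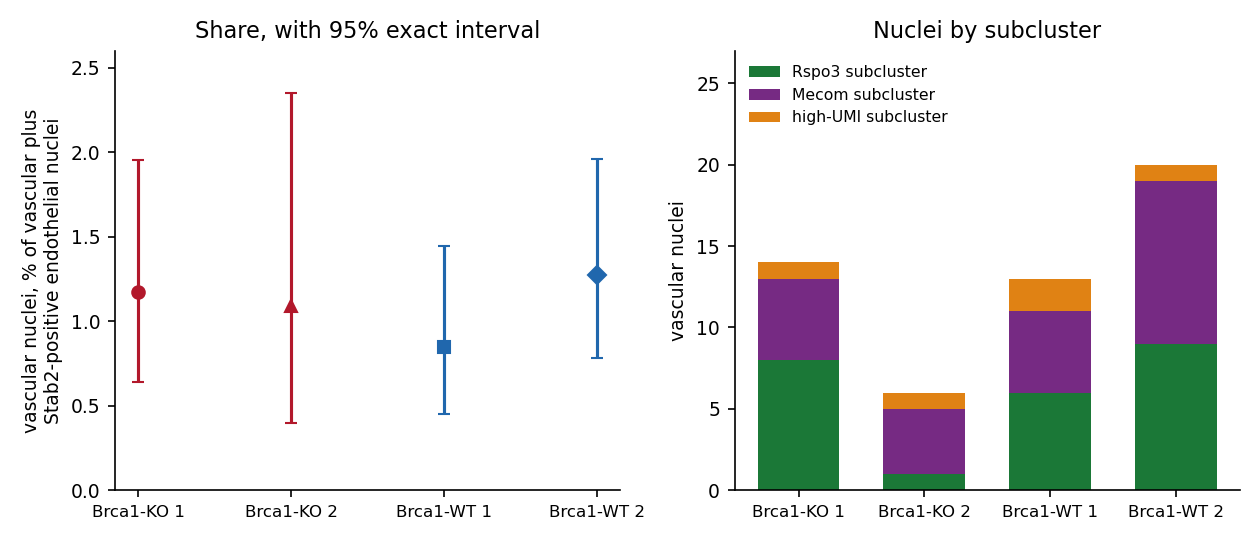
Left, vascular nuclei as a percentage of vascular plus Stab2-positive nuclei (y axis) in each library, with exact 95% intervals; right, number of member nuclei (y axis) of the Rspo3, Mecom and deep groups in each library. The shares lay between 0.849% and 1.27% and their intervals overlapped.

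The levels of single genes between the genotypes are described on the pooled members, 20 nuclei with 80576 UMIs in the libraries labelled Brca1-KO and 33 nuclei with 107385 UMIs in the Brca1-WT libraries, with no test, since 3 libraries had under 20 members. Of 2290 genes with at least 20 UMIs, 323 (14.1%) differed by over 2-fold: 141 (6.16%) were higher and 182 (7.95%) lower. Without the 5 deep nuclei it was 162 of 1109 genes (14.6%), 78 (7.03%) higher and 84 (7.57%) lower. Intervals of ratios cover counting error only, and UMIs of 1 nucleus are not independent. A test added after the data were seen, edgeR's quasi-likelihood test on the 4 sums, called 0 of 1432 genes, with 20 at an unadjusted p below 0.05 and a smallest adjusted p of 0.494; DESeq2 called 0 as well.

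Of genes high in vascular over Stab2-positive nuclei, Mecom, Rspo3 and Vegfc lay within 2-fold between the genotypes. Mecom stood at 2259 CPM in Brca1-KO and 2431 CPM in Brca1-WT, a ratio of 0.929 (0.765 to 1.13), and its log2 ratio ran from -1.12 without Brca1-WT 1 to 1.67 without Brca1-WT 2. Rspo3 stood at 409.6 CPM in Brca1-KO and 726 CPM in Brca1-WT, a ratio of 0.564 (0.363 to 0.857), with log2 ratios of -1.50 without Brca1-WT 1 and -0.06 without Brca1-WT 2. Vegfc had a ratio of 1.24 (0.716 to 2.15). Vwf, which the rule used, had a ratio of 0.495 (0.334 to 0.721), but its values of 454 and 618 CPM in Brca1-KO and 426 and 1773 CPM in Brca1-WT overlapped, and without Brca1-WT 2 the log2 ratio turned to 0.18.

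Bhmt, the enzyme that remethylates homocysteine in hepatocytes and that the title of the study names, had 17 and 2 UMIs in the members of the libraries labelled Brca1-KO, against 113 and 25 UMIs in those of the Brca1-WT libraries. That came to 236 CPM in Brca1-KO and 1285 CPM in Brca1-WT, a ratio of 0.183 (0.107 to 0.298). Both Brca1-KO libraries were below both Brca1-WT libraries. Without the 5 deep nuclei Bhmt stood at 51.5 CPM in Brca1-KO and 183 CPM in Brca1-WT, a ratio of 0.282. Most of its UMIs thus lay in the deep nuclei. The log2 ratio of -2.45 over all members moved to -3.23 without Brca1-KO 1 and to -1.27 without Brca1-WT 1. Stab2-positive nuclei held 314 CPM in Brca1-KO and 856 CPM in Brca1-WT. Hepatocyte markers in the member sums stood beside it at 12208 and 13604 CPM in Brca1-KO and at 19638 and 6161 CPM in Brca1-WT, and how much of the Bhmt came from hepatocyte RNA was not tested.

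By the naming rule, 5 genes with the most extreme pooled ratios among those whose libraries did not overlap are given in each direction. On the higher side were Scarb1, the HDL receptor, at a ratio of 4.57 (1.91 to 12.6), the taurine synthesis enzyme Csad at 4.44 (1.72 to 13.5), the peroxisomal oxidase Pipox at 4 (1.38 to 14.1), the phosphatase Dusp16 at 4 (1.38 to 14.1) and the chaperone Canx at 4 (1.52 to 12.3). They rested on 15 to 24 UMIs in Brca1-KO and 5 to 7 UMIs in Brca1-WT. Scarb1 lost its difference without Brca1-KO 1 (log2 0.08), and without the 5 deep nuclei Csad was at 1.55 and Canx at 2.33. Pipox then had 0 CPM in Brca1-KO and 16.6 CPM in Brca1-WT, which is 1 UMI, so its higher level lay in the deep nuclei. Scarb1 and Dusp16 were then at 7.75 each, with 129 CPM in Brca1-KO and 16.6 CPM in Brca1-WT. Each of these ratios thus rested on 1 Brca1-WT UMI. Csad and Canx stood at 33.2 CPM in Brca1-WT, which is few UMIs as well. Dusp16 had a log2 ratio of 3.15 without Brca1-KO 1 and of 3.03 without Brca1-WT 1.

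On the lower side were the protocadherin Pcdh9, the peroxisome proliferator target genes Cyp4a14 and Cyp4a10, which hydroxylate fatty acids in hepatocytes, the kinase Ptk2b and the zinc finger gene Bnc2. Cyp4a14 had 2 and 1 UMIs in Brca1-KO, against 83 and 15 UMIs in Brca1-WT, a ratio of 0.0408 (0.00827 to 0.123), with log2 ratios of -3.73 without Brca1-KO 1 and -3.20 without Brca1-WT 1. Cyp4a10 had 1 and 0 UMIs in Brca1-KO, against 49 and 13 in Brca1-WT, and stood at a log2 ratio of -4.57 without Brca1-WT 1. Leaving out the 5 deep nuclei took the Brca1-WT level of Cyp4a14 from 913 to 266 CPM and that of Cyp4a10 from 577 to 133 CPM. In Brca1-KO they then stood at 25.8 and 0 CPM, and the ratio of Cyp4a14 was 0.0969. Much of the Brca1-WT level of both genes thus lay in the deep nuclei. Cyp4a14 and Cyp4a10 are paralogs, and whether counting split any shared reads was not tested. In Stab2-positive nuclei Cyp4a14 stood at 294 CPM in Brca1-KO and 774 CPM in Brca1-WT, and Cyp4a10 at 104 and 316 CPM. Ptk2b had a ratio of 0.143 (0.0278 to 0.462), and a log2 ratio of -1.92 without Brca1-KO 1. Bnc2 had 0 and 1 UMIs in Brca1-KO, against 8 and 17 in Brca1-WT, with log2 ratios of -4.96 without Brca1-WT 1, -3.35 without Brca1-WT 2 and -1.76 without Brca1-KO 1.

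Of the endothelial lists, 4 genes outside the gate were past 2-fold higher in Brca1-KO with no overlap between libraries (Nrp2, Npr3, Lrp6 and Prox1) and 5 were past 2-fold lower (Eln, Emcn, Meis1, Calcrl and H2-K1). That is 9 of 88 genes with at least 20 UMIs (10.2%), against 217 of all 2290 (9.48%), of which 90 (3.93%) were higher and 127 (5.55%) lower, a share near the background. Without the 5 deep nuclei Prox1 (1.55), Eln (0.607) and Calcrl (0.54) lay within 2-fold. Nrp2 stood at 303 and 344 CPM in Brca1-KO, against 142 and 114 CPM in Brca1-WT. Npr3 stood at 242 and 206 CPM in Brca1-KO, against 78.9 and 114 CPM in Brca1-WT. Endomucin (Emcn), a venous and capillary sialomucin, was lower, at 75.7 and 137 CPM in Brca1-KO, against 299.7 and 182 CPM in Brca1-WT, and its log2 ratio was -0.87 without Brca1-KO 1. The transcription factor Meis1 had a ratio of 0.305 (0.122 to 0.668) and the adrenomedullin receptor Calcrl one of 0.422 (0.274 to 0.634). Of the methionine and one-carbon list, Dmgdh, which demethylates the dimethylglycine that Bhmt makes, was lower at a ratio of 0.247 (0.0742 to 0.65), on 5 and 0 UMIs in Brca1-KO and 23 and 4 in Brca1-WT. Without the 5 deep nuclei Dmgdh stood at 0 CPM in Brca1-KO and 49.8 CPM in Brca1-WT, so most of its UMIs lay in the deep nuclei.

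Pcdh9 was the only gene called for a genotype difference in vascular nuclei unlike that in Stab2-positive nuclei, 1 of 8395 genes tested (0.0119%). On simulated data this test recovered 0% of genes changed 4-fold and 2% of those changed 8-fold. A missed call therefore does not show an equal change. Pcdh9 had 3 and 0 UMIs in Brca1-KO, against 76 and 38 in Brca1-WT. The pooled level was 37.2 CPM in Brca1-KO and 1062 CPM in Brca1-WT. The UMIs lay in 1 and 0 members in Brca1-KO and in 6 and 7 in Brca1-WT, and 1 nucleus held 63 of them. In Stab2-positive nuclei it stood at 141 and 21.4 CPM in Brca1-KO, against 137 and 103 CPM in Brca1-WT. The class by genotype difference was -4.84 ± 1.05 (SE) on the log2 scale, with an adjusted p of 0.0323 by edgeR. It did not pass by DESeq2 (0.119), without the 5 deep nuclei (0.111), or without any 1 library (0.94 without Brca1-KO 1, 0.0984 without Brca1-KO 2, 1 without either Brca1-WT library). Within the members Pcdh9 went with the Rspo3 group, at 2157 CPM, against 84.1 CPM in the Mecom group. Nuclei of the Rspo3 group in Brca1-KO 1 held 157 CPM of it (3 UMIs in 1 of 8 nuclei) and the 1 in Brca1-KO 2 held 0, against 5047 and 2124 CPM in those of the Brca1-WT libraries; the part of group sizes in the difference was not tested.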

How the data were processed

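Nuclei of 4 livers were measured, 2 libraries labelled Brca1-KO and 2 labelled Brca1-WT. Raw UMI counts of each gene in each barcode were deposited by the authors, and the file headers name Cell Ranger 6.0.0 as their source. The submitters' processing notes name GRCh38, a human build, while all 32285 gene identifiers are of mouse; the mouse build, and whether introns were counted, is not given in those sources. The labels call the molecule genomic DNA, although the values count transcripts. RefSeq promoter windows come from GRCm38.p6 and were matched by symbol.

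The members, gene lists and groups were chosen with earlier results of these data known. Counts were summed per library and class and tested with edgeR 4.0.16 in R 4.3.3 (TMM, filterByExpr, robust glmQLFit and glmQLFTest, Benjamini-Hochberg over all genes tested, called below 0.05). The script was tested on simulated data. In the class comparison it recovered 46.4% of 181 genes changed 4-fold and 82.1% of 184 changed 8-fold, with 7105 and 7093 genes tested. In the class by genotype comparison it recovered 0% of 194 and 2% of 197, with 8444 and 8415 tested. The simulation gave every gene the same dispersion and had no single nuclei, so recovery in the data may differ. DESeq2 1.42.0, RLE size factors, no filter, stricter gates, thinning to 1000 UMIs, removal of called doublets and leaving out each library were alternatives. Leaving out the nuclei over 7000 UMIs, and edgeR between the genotypes, were added after the data were seen. Doublets were called with Scrublet in scanpy 1.11.5 (expected rate 0.06, thresholds of 0.21, 0.274, 0.142 and 0.168 in library order, marking 5.01%, 2.99%, 11.3% and 7.33% of kept nuclei) and kept in the main sums. The members were clustered with Leiden at resolution 0.5 on 1500 variable genes, 15 principal components and 15 neighbours. Intervals are exact Clopper-Pearson intervals at 95% and cover counting error only. For ratios they were taken on the Brca1-KO part of a gene's pooled UMIs and scaled by the total UMIs of the genotypes. Hepatocyte nuclei used as a background had no UMI of the gate genes for endothelium, sinusoids or excluded cells, and over 1% of UMIs in hepatocyte markers.

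Named in the class comparison were up to 12 called genes each way of largest difference, with an average log2 CPM of 5 or more and the same direction in all libraries, and up to 4 members of smallest p per list. Between the genotypes Bhmt and Brca1 were named, with 5 genes each way of largest pooled ratio, at 20 UMIs or more and with libraries that did not overlap, in place of a ranking by p, since the planned test needed 20 members in each library. Mitochondrially encoded genes and unnamed gene models were left out.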

Additional observations from a re-analysis of the deposited data

Results flagged for a closer look

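Pcdh9, a protocadherin, was picked out because its genotype difference in vascular nuclei differed from that in Stab2-positive nuclei by the test of that difference, at -4.84 on the log2 scale with an adjusted p of 0.0323 by edgeR's quasi-likelihood test (1 of 8395 genes). Among the vascular nuclei both Brca1-KO libraries were below both Brca1-WT libraries. Each group held 2 libraries, too few to look for a library far from the others.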

How the results depend on the processing

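Of 56 genes called and named in the class comparison, 37 passed under every alternative run on them, and of 776 values 713 stayed called, 63 did not pass and none changed sign. The count of 326 calls was 575 without called doublets and 506 without nuclei over 7000 UMIs, and between 185 (without Brca1-KO 1) and 397 (without Brca1-KO 2) with 1 library left out. DESeq2 called 111 genes higher and 122 lower, against 117 and 209 by edgeR.

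The class by genotype count of 1 was 0 by DESeq2, with no filter on low counts, with at least 3 vascular UMIs, with Cdh13 left out of the gate, after thinning and without nuclei over 7000 UMIs, and 0 to 1 with 1 library left out, where the 1 was another gene than Pcdh9. The added genotype test called 3 genes with Cdh13 left out of the gate, 1 without nuclei over 7000 UMIs and 0 to 7 with 1 library left out. DESeq2, RLE size factors and no filter, planned for the genotype comparison, were run on that added test and called 0. The pooled count of 323 genes past 2-fold was 61 after thinning, 162 without nuclei over 7000 UMIs and 266 to 441 with 1 library left out.

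The difference in share of 0.067 percentage points turned to -0.0465 over all kept nuclei, -0.00896 with at least 3 vascular UMIs, -0.171 with Cdh13 left out and -0.138 after thinning, and ran from -0.145 (without Brca1-WT 1) to 0.28 (without Brca1-WT 2). The log2 genotype ratio turned to -0.22 for Csad after thinning and to -0.42 for Canx with Cdh13 left out, and for Vwf it ran from -1.87 without Brca1-WT 1 to 0.18 without Brca1-WT 2. The cause was not tested in any of these.

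With replicate number as a block (replicate block), the added genotype test called 3 genes, against 0. The labels do not say that numbers pair the libraries, and same-numbered libraries deviated together with a correlation of 0.0662 over 1432 genes in 2 pairs. The block left the share difference at 0.067 percentage points.

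With 53 nuclei, levels under about 3 UMIs a library could not be told from 0, and a missed threshold says nothing of equal levels.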
